A study of Mus musculus with 8 samples.

Results

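Immediate early transcription factors were examined here as a group of 10 genes: Fos, Fosb, Jun, Junb, Jund, Egr1, Ier2, Klf2, Klf4 and Klf6. They were picked by symbol, and each matched 1 of the 36432 gene IDs in the expression tables. The tables describe poly(A) RNA of 8 whole mouse pancreases, with 4 controls and 4 mice labelled as lacking Gata6 in that organ. All mice were 6 to 8 weeks old, of mixed strain, and carried Cre at the Ptf1a locus (Ptf1a-Cre +/KI), which acts in pancreatic progenitors and acinar cells. The controls carried that allele alone. The other mice carried it together with 2 floxed alleles (Gata6 lox/lox), and their libraries are called labelled libraries 1 to 4. The comparison asks which genes differ in adult pancreas when Gata6, a zinc finger transcription factor, has been targeted there.

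Immediate early genes are transcribed within minutes of a growth factor, stress or injury signal, without new protein synthesis, and their mRNAs are short-lived. MAP kinases act on factors already bound at these genes, among them SRF with its ternary complex partners, CREB and ATF proteins. FOS and JUN proteins pair through leucine zippers to form AP-1, EGR1 and the KLF proteins bind GC-rich DNA through zinc fingers, and IER2 is a small nuclear protein. In pancreas these genes are known to respond to acinar injury, to secretagogues and to handling of the tissue itself. Whole organ RNA mixes all cell types, so more cells of a type and more RNA per cell cannot be told apart.

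Levels are given as rescaled FPKM, which is the deposited value divided by the constant 100000 in every library, so libraries were not rescaled against each other. The deposited values summed to between 2.34e+10 and 1.86e+11 per library. Fragments implied by the deposited intervals summed to between 5357599 and 9242248 per library. Labelled libraries 1 and 3 stood apart: summed levels of 10 acinar markers were 295674 to 405339 among controls but 2679 and 27684 there, against 154159 and 196685 in labelled libraries 2 and 4. Gata6 itself was at 2.12 to 2.76 in controls and, against the label, at 4.12 to 5.12 in the labelled libraries; a gene-level FPKM does not resolve the floxed part, so the deletion was not checked here. Its log2 fold change was 0.72 (adjusted p = 0.0443 in limma), and the call ended in 19 of 22 other settings. Title prefix was unbalanced, with BKD for control 1 and labelled libraries 1, 3 and 4, ASK for controls 2 to 4 and BSH for labelled library 2. Nothing in the labels says what the prefix stands for.

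Most members were higher in the labelled libraries, chiefly in libraries 1 and 3, but none passed the test over all genes. Of the 10 members, 8 reached a mean of 1 rescaled FPKM and were tested, while Fos and Fosb stayed below it. Adjusted p-values ran from 0.109 for Jun to 0.993 for Ier2, and 0 of 8 passed, where 0.413% of the 11860 genes tested did. At an unadjusted p under 0.05 there were 5 of 8 members, all higher (Jun, Junb, Egr1, Klf2 and Klf6), against 30.1% of all genes in either direction and 17.9% higher. Every labelled library was above every control for 3 of 8 members (Jun, Egr1 and Klf6), against 10.9% of all genes. The median log2 fold change of the 8 members, labelled minus control, was 0.71 on the log2(rescaled FPKM + 1) scale, and that of all genes tested was 0.10. Labelled libraries 1 and 3 were the 2 highest of the 8 libraries for 6 of 8 tested members, and the same held for 30.5% of all genes.

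**Figure D1:**
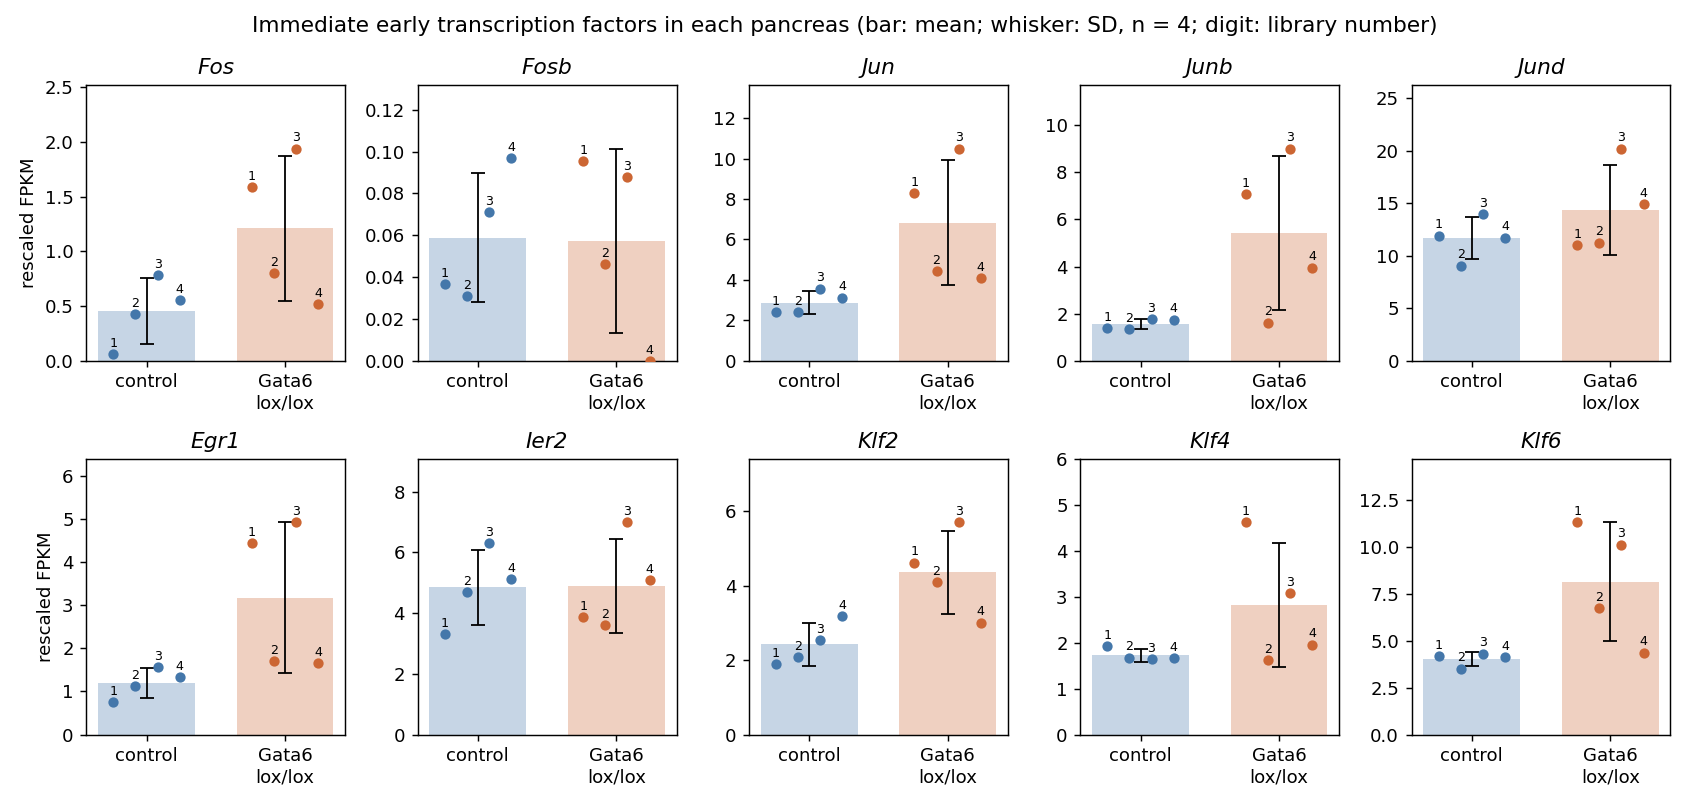
Rescaled FPKM (y axis) of each member in the 4 controls and the 4 libraries labelled Gata6 lox/lox; bars are means, whiskers the SD (n = 4), and the digit beside a point is the library number. Labelled libraries 1 and 3 sit highest for Fos, Jun, Junb, Egr1, Klf2, Klf4 and Klf6. The groups are without overlap for Jun, Egr1 and Klf6 only.

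The members' median stayed between 0.58 and 0.90 with any single library left out, but which members passed depended on the libraries. Without labelled library 4 the adjusted p was under 0.05 for Jun (0.0393), Egr1 (0.0484), Klf2 (0.0374) and Klf6 (0.0347), in a fit that called 11.5% of all genes higher. With sample weights, which let limma count noisier libraries less, 5 of 8 members passed (adjusted p from 0.0159 to 0.0206), and 19.5% of all genes were called higher. Without labelled libraries 1 and 3, an alternative added after the data were seen, 7 of 8 members were still positive (50.6% of all genes). The members' median was 0.33 against 0.01 for all genes, and none passed. In the BKD titles alone the median was 0.85 with 8 of 8 positive (55.9% of all genes). In the ASK and BSH titles, where labelled library 2 is alone, it was 0.11 with 5 of 8 positive (48.6% of all genes). With the prefix as a covariate it was 0.71. The count of 3 members without overlap also moved. It was 1 with median-ratio scaling (9.01% of all genes), 1 with quantile normalization (7.15%), 1 of the 2 left at a minimum mean of 5 (9.03%), 5 with equal sums (26.3%), 8 with implied totals (52.5%) and 5 without labelled library 2 (16.3%). In the BKD titles it was 7 (35.9%). With ASK or BSH alone 4 members were higher (30.7%) and 2 lower, where 3821 of the 11860 genes were lower without overlap.

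Among the FOS genes, which supply the partner that JUN proteins need to form the classical AP-1 dimer, Fos was low and variable. Fos (ENSMUSG00000021250, mm9 chromosome 12, 86814840 to 86818223) was at 0.0604, 0.429, 0.786 and 0.553 rescaled FPKM in controls 1 to 4. In labelled libraries 1 to 4 it was at 1.58, 0.803, 1.94 and 0.515. Libraries 1 and 3 were thus above every control, library 2 was barely above, and library 4 lay among the controls. The means were 0.457 ± 0.303 and 1.21 ± 0.663 (SD, n = 4), with an exact two-sided permutation p of 0.114. In the fit without an expression minimum its log2 fold change was 0.58 (SE 0.26, adjusted p = 0.254). The deposited intervals of the controls were wide: their implied fragments were 0.513 to 4.04, and the deposited lower bound was 0 in controls 1 to 3. The 0.513 of control 1, at a level above 0, is less than a whole fragment, so these are not read counts. In libraries 1 and 3 the implied fragments were 71.4 and 111, with deposited bounds of 1.21 to 1.96 and 1.57 to 2.31.

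Fosb, the close relative of Fos known for long-lasting induction in neurons, was near the limit of detection throughout. Fosb (ENSMUSG00000003545, mm9 chromosome 7, 19888070 to 19895394) had 1 to 4 implied fragments per control and 12, 2, 10 and 0 in labelled libraries 1 to 4. Its levels were 0.0310 to 0.0970 rescaled FPKM among controls, and 0.0956, 0.0462, 0.0878 and 0 in the labelled libraries. No difference between the groups was detectable at this depth.

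Of the JUN genes, which encode the AP-1 subunits able to pair with each other as well as with FOS, Junb differed most. Junb (ENSMUSG00000052837, mm9 chromosome 8, 87500811 to 87502617) was at 1.38, 1.36, 1.77 and 1.75 rescaled FPKM in controls 1 to 4. It was at 7.07, 1.62, 9.01 and 3.96 in labelled libraries 1 to 4. Libraries 1, 3 and 4 exceeded every control, and library 2 lay inside the control range. The mean was 1.57 ± 0.224 among controls and 5.41 ± 3.27 in the labelled libraries (SD, n = 4), a ratio of 3.46. The log2 fold change was 1.15 (SE 0.38, adjusted p = 0.117 in limma), and the exact permutation p was 0.0857. It was 0.49 without labelled libraries 1 and 3, 1.63 in the BKD titles and 0.000593 in the ASK and BSH titles.

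Jun (ENSMUSG00000052684, mm9 chromosome 4, 94715725 to 94718913), the founding AP-1 subunit and a target of the JNK kinases, showed no overlap between groups. Its levels were 2.43, 2.42, 3.57 and 3.12 rescaled FPKM in controls 1 to 4 and 8.30, 4.44, 10.5 and 4.08 in labelled libraries 1 to 4. All 4 labelled libraries were above the highest control, libraries 2 and 4 by a small margin. The means were 2.88 ± 0.563 and 6.83 ± 3.10 (SD, n = 4), with a log2 fold change of 0.94 (SE 0.28, adjusted p = 0.109 in limma). The exact permutation p was 0.0286, the smallest that 4 against 4 allow.

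Jund (ENSMUSG00000071076, mm9 chromosome 8, 73221638 to 73224515), the JUN gene known for steady expression in resting cells, was the most abundant member. Controls 1 to 4 had 11.9, 9.07, 13.9 and 11.7 rescaled FPKM, and labelled libraries 1 to 4 had 11.0, 11.3, 20.2 and 14.9. Libraries 1 and 2 lay inside the control range, and libraries 3 and 4 above it. The log2 fold change was 0.25, with a 95% interval of -0.26 to 0.76 (adjusted p = 0.433 in limma).

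Junb and Jun shared with Ier2 and Jund a gene structure of 1 exon in GENCODE M21. Thus 4 of 10 members were intronless. Of 21899 genes with a protein-coding transcript, 12.5% had at least 1 such transcript of 1 exon, which is not the share without introns. Chromosome 8 held 4 members (Jund, Klf2, Ier2 and Junb), and Ier2 and Junb lay 314059 bases apart there on mm9.

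The upstream sequences of 4 members with higher means in the labelled libraries are shown because AP-1 and CREB sites are the textbook inputs of such promoters. Each run is the 250 bases before the RefSeq start on build GRCm38.p6, read along the gene's strand: Junb at chr8:84978749-84978998 (minus), Jun at chr4:95052223-95052472 (minus), Klf6 at chr13:5861239-5861488 (plus) and Fos at chr12:85473640-85473889 (plus). Capitals mark TGACG, the core of a cAMP response element, and TGACATCA, the AP-1 type element, on either strand.
Junb: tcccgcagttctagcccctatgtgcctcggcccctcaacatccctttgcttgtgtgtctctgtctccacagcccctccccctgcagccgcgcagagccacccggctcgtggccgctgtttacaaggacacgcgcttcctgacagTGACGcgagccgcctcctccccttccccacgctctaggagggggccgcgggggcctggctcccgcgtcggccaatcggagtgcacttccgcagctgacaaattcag
Jun: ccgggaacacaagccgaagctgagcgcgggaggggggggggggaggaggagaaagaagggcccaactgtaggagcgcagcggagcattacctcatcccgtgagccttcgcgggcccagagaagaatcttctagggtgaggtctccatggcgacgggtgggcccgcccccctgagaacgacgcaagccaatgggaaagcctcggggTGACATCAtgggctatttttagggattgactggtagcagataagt
Klf6: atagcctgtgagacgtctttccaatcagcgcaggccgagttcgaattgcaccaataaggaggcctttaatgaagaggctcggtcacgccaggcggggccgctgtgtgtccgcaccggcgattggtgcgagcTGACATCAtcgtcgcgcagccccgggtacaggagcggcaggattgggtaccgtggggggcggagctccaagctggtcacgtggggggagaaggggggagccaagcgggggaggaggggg
Fos: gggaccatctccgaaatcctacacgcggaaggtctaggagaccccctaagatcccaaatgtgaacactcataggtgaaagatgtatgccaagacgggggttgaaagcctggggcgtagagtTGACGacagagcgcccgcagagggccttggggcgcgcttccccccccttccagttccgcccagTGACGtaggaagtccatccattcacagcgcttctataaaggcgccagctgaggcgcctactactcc
In these windows TGACG stood 106 to 102 bases before the Junb start, and at 129 to 125 and 66 to 62 before that of Fos. TGACATCA stood 45 to 38 bases before the Jun start and 119 to 112 before that of Klf6. Among the 8 members whose window was used here, which were all but Egr1 and Ier2, TGACG occurred in 5 (Fos, Fosb, Junb, Klf2 and Klf4) and in 17.8% of all 32851 windows. GC made up 58.4 to 74% of those 5 windows, and 61.2, 64.8 and 47.6% of the windows of Jun, Klf6 and Jund. The median over all windows was 52.4%, and the part of base composition in these counts was not tested. TGACATCA occurred in 2 of the 8 and in 2.93% of all windows. The full element TGACGTCA (1.55% of windows, and holding TGACG within it), the AP-1 element TGANTCA (6.75%) and the CArG box bound by SRF (1.47%) were in none of the 8. Sites more than 250 bases upstream, and any at Egr1 or Ier2, were not searched, so these genes may still have such sites. The Jund window begins upstream of a RefSeq start that differs from the GENCODE M21 start of that gene. All motifs were searched on both strands, and a match is a string of letters only.

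Egr1 (ENSMUSG00000038418, mm9 chromosome 18, 35020861 to 35024638), a zinc finger factor induced by ERK signalling, followed Jun. It was at 0.759, 1.12, 1.57 and 1.33 rescaled FPKM in controls 1 to 4 and at 4.43, 1.71, 4.92 and 1.65 in labelled libraries 1 to 4. The groups did not overlap, but libraries 2 and 4 were close to the highest control. The means were 1.2 ± 0.344 and 3.18 ± 1.74 (SD, n = 4), with a log2 fold change of 0.84 (SE 0.30, adjusted p = 0.127 in limma) and an exact permutation p of 0.0286.

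Ier2 (ENSMUSG00000053560, mm9 chromosome 8, 87185230 to 87186751), often induced together with Fos and Junb, had overlapping groups. Its levels were 3.31, 4.68, 6.30 and 5.13 rescaled FPKM in controls 1 to 4 and 3.87, 3.60, 6.99 and 5.08 in labelled libraries 1 to 4. Library 3 alone was above the controls. The log2 fold change was -0.00306, with a 95% interval of -0.51 to 0.51 (adjusted p = 0.993 in limma). This value depends on scaling, since it became 0.81 with equal sums outside the digestive enzymes and 1.15 with implied fragment totals, settings in which all genes had medians of 0.84 and 1.14. Ier2 had 35 to 80 implied fragments among controls and 179, 61, 313 and 65 in labelled libraries 1 to 4. Junb had 16 to 31 and then 395, 31, 465 and 56.

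**Figure D2:**
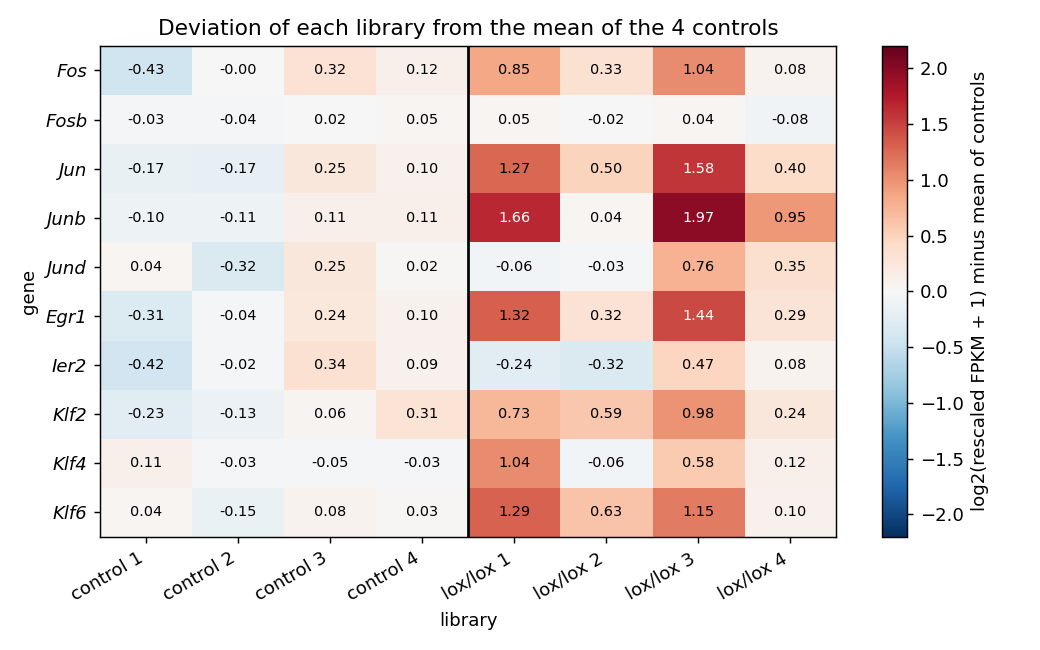
Each cell gives log2(rescaled FPKM + 1) of a member (row) in a library (column) minus the mean of the 4 controls; red is higher and blue lower. Junb in labelled libraries 1 and 3 reaches 1.66 and 1.97, and Ier2 in the same libraries is at -0.24 and 0.47.

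The 3 Krüppel-like factors were all higher on average. Klf6 (ENSMUSG00000000078, mm9 chromosome 13, 5860735 to 5869639), an injury-induced factor of stellate and endothelial cells, was at 4.16, 3.51, 4.31 and 4.11 rescaled FPKM in controls 1 to 4. It was at 11.3, 6.75, 10.1 and 4.37 in labelled libraries 1 to 4. The groups did not overlap, although library 4 exceeded the highest control only slightly. The means were 4.03 ± 0.352 and 8.13 ± 3.17 (SD, n = 4), a ratio of 2.02, with a log2 fold change of 0.79 (SE 0.25, adjusted p = 0.114 in limma) and an exact permutation p of 0.0286.

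Klf2 (ENSMUSG00000055148, mm9 chromosome 8, 74842932 to 74845555) is known as a flow-induced factor of endothelium and a quiescence factor of lymphocytes. Controls 1 to 4 had 1.88, 2.09, 2.53 and 3.19 rescaled FPKM, and labelled libraries 1 to 4 had 4.62, 4.10, 5.70 and 3.01. Libraries 1 to 3 were above every control, while library 4 was below control 4. The log2 fold change was 0.64 (SE 0.19, adjusted p = 0.109 in limma), and the exact permutation p was 0.0571. The summed level of 10 endothelial markers was 52.7 to 67.5 among controls and 50.0 to 71.2 in the labelled libraries, so these overlapped. Their median log2 fold change was 0.10, as was that of all genes. The 8 lymphocyte markers summed to 7.78 to 32.0 among controls and 24.1 to 64.4 in the labelled libraries, and their part in the Klf2 difference was not tested.

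Klf4 (ENSMUSG00000003032, mm9 chromosome 4, 55540013 to 55545347), a factor of epithelial differentiation, endothelium and macrophages, was at 1.94, 1.68, 1.64 and 1.67 rescaled FPKM in controls 1 to 4. Labelled libraries 1 to 4 had 4.63, 1.62, 3.09 and 1.96, so library 2 was below every control and library 4 only just above them. The log2 fold change was 0.42, with a 95% interval of -0.11 to 0.95 (adjusted p = 0.237 in limma).

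The order of levels, per length in FPKM, was Jund, Ier2, Klf6, Jun, Klf2, Klf4, Junb, Egr1, Fos and Fosb among controls. Only Jund was set off from its neighbour there (lowest control 9.07, against at most 6.30 for Ier2), and every other neighbouring pair overlapped. In the labelled libraries the order was Jund, Klf6, Jun, Junb, Ier2, Klf2, Egr1, Klf4, Fos and Fosb, with every neighbouring pair overlapping except Fos and Fosb. Junb thus moved from rank 7 to rank 4 and Ier2 from rank 2 to rank 5, by means whose ranges overlap their neighbours'.

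Scaling moved the members together with all genes, and changed part of their order. The median of all genes was 0.02 with median-ratio scaling, 0.84 with equal sums outside the enzymes and 1.14 with implied totals. Relative to that median, and with quantile normalization included, Junb lay between 1.01 and 1.05, Jun between 0.82 and 0.92, Klf6 between 0.68 and 0.84 and Egr1 between 0.63 and 0.74. Klf2 lay between 0.50 and 0.56, Klf4 between 0.27 and 0.32, Jund between 0.13 and 0.40 and Ier2 between -0.12 and 0.01. Without further scaling and with median-ratio scaling Egr1 was above Klf6 and Klf4 above Jund, and with quantile normalization, equal sums and implied totals both orders were the other way round. All of these values used a pseudocount of 1, and sizes and order also depended on that constant. Without further scaling, Egr1 (log2 1.21) was above Jun (1.12) at a pseudocount of 0.1. At a pseudocount of 5 Egr1 (0.38) was below Klf6 (0.51).

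**Figure D3:**
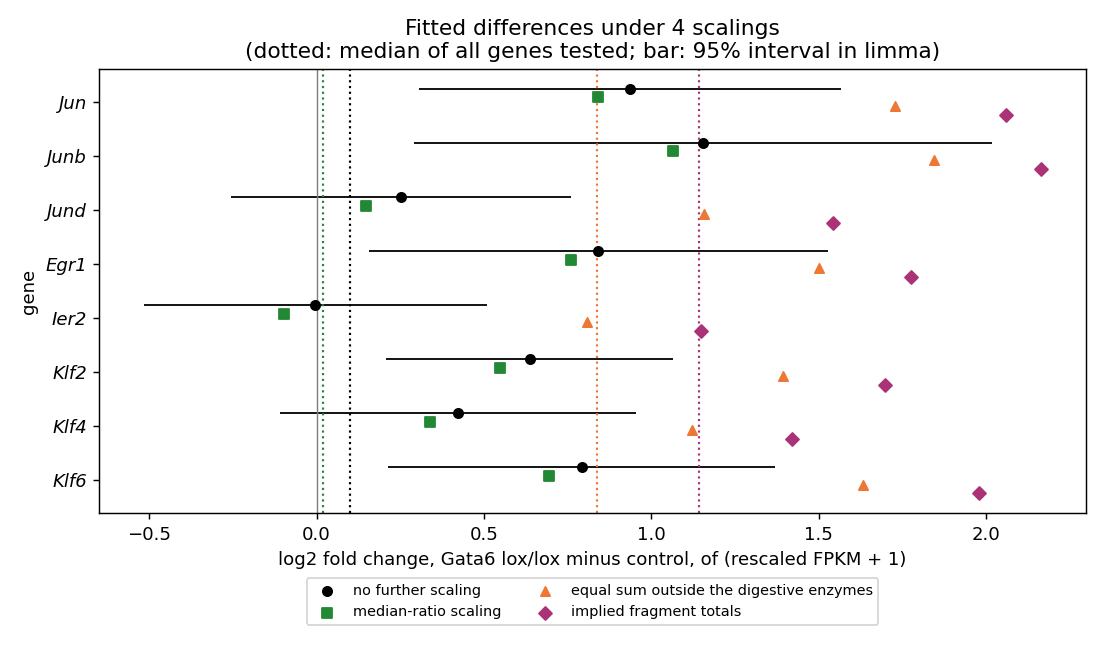
Fitted log2 fold change of the 8 tested members (x axis) under 4 scalings, with the 95% interval in limma for the unscaled fit and dotted lines at the median of all genes under each scaling. Jun, Junb, Jund, Egr1, Klf2, Klf4 and Klf6 lie right of the dotted line of their own colour, and Ier2 lies on or near it.

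Ratios between members within a library do not depend on any scaling of that library. They were computed for 4 pairs chosen after the values were seen, and are given without a test. The ratio of Jun to Jund was 0.204 to 0.266 among controls and 0.753, 0.394, 0.519 and 0.273 in labelled libraries 1 to 4, without overlap. That of Junb to Jund was 0.116 to 0.150 among controls and 0.641, 0.144, 0.446 and 0.265, with library 2 inside the control range. The ratio of Junb to Ier2 was 0.280 to 0.417 among controls and 1.83, 0.451, 1.29 and 0.779 in the labelled libraries. That of Egr1 to Ier2 was narrow among controls, at 0.229 to 0.260, and 1.15, 0.475, 0.703 and 0.325 in the labelled libraries.

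**Figure D4:**
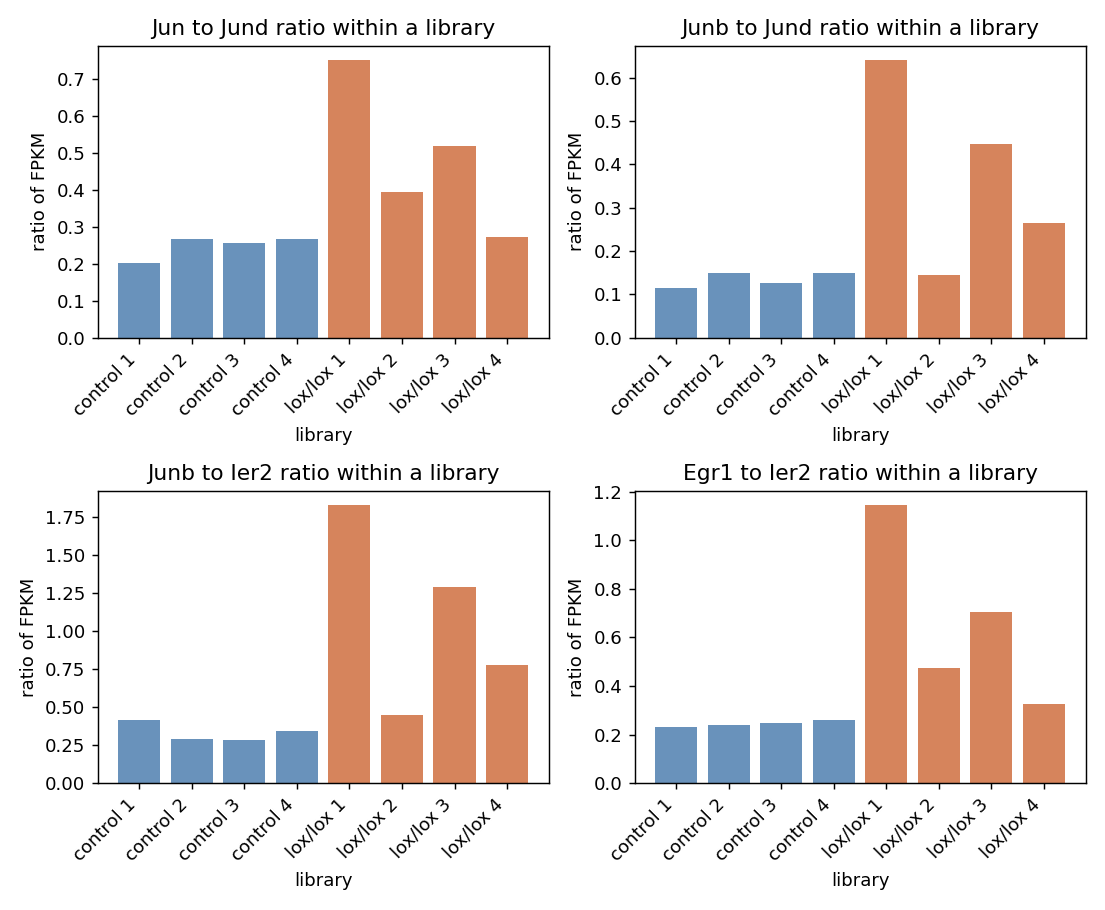
Ratio of FPKM between 2 members in each library (y axes start at 0), with controls in blue and labelled libraries in orange. Egr1 to Ier2 stays between 0.229 and 0.260 among controls and reaches 1.15 in labelled library 1.

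Markers of myeloid cells, fibroblasts and smooth muscle were, like the members, highest in labelled libraries 1 and 3. The 9 myeloid markers summed to 103 to 165 rescaled FPKM among controls and to 855, 264, 744 and 220 in labelled libraries 1 to 4, with 8 of 9 not overlapping and none at 0. The 8 fibroblast markers summed to 208 to 288 among controls and to 866, 338, 1260 and 396 in the labelled libraries. Adipocyte markers (9) summed to 92.0 to 237 and then 561, 469, 410 and 467, with library 3 lowest of the labelled libraries. Of these 9, 2 passed the test over all genes and rose: Cidec (log2 1.95, adjusted p = 0.0363 in limma) and Plin4 (1.84, 0.0423), both lipid droplet proteins. Smooth muscle and pericyte markers (8) summed to 16.3 to 21.6 and then 39.4, 23.6, 41.7 and 23.5. Duct markers summed to 178 to 234 among controls and 138 to 271 in the labelled libraries, so these overlapped. Islet markers summed to 558 to 1476 and then 5962, 1490, 944 and 762. Their groups overlapped too, with labelled library 1 far above all other libraries. The duct genes differed in direction: Muc1 was at 137 ± 21.0 among controls and 51.7 ± 39.6 in the labelled libraries (log2 -1.75, adjusted p = 0.117), while Epcam was at 6.45 to 7.15 and then 9.23 to 30.2 (1.09, 0.113), with Krt19 (1.13, 0.119) and Krt7 (1.18, 0.191). The median deviation of the duct list was 1.59, -0.05, 0.47 and -0.17 in labelled libraries 1 to 4. The median deviation of the 8 tested members from the controls was 1.16, 0.18, 1.07 and 0.26 in labelled libraries 1 to 4. That of the myeloid markers was 2.62, 0.91, 2.58 and 0.63, and that of the acinar markers was -6.45, -1.10, -3.37 and -0.79. The part of these cell types in the members' values was not tested.

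**Figure D5:**
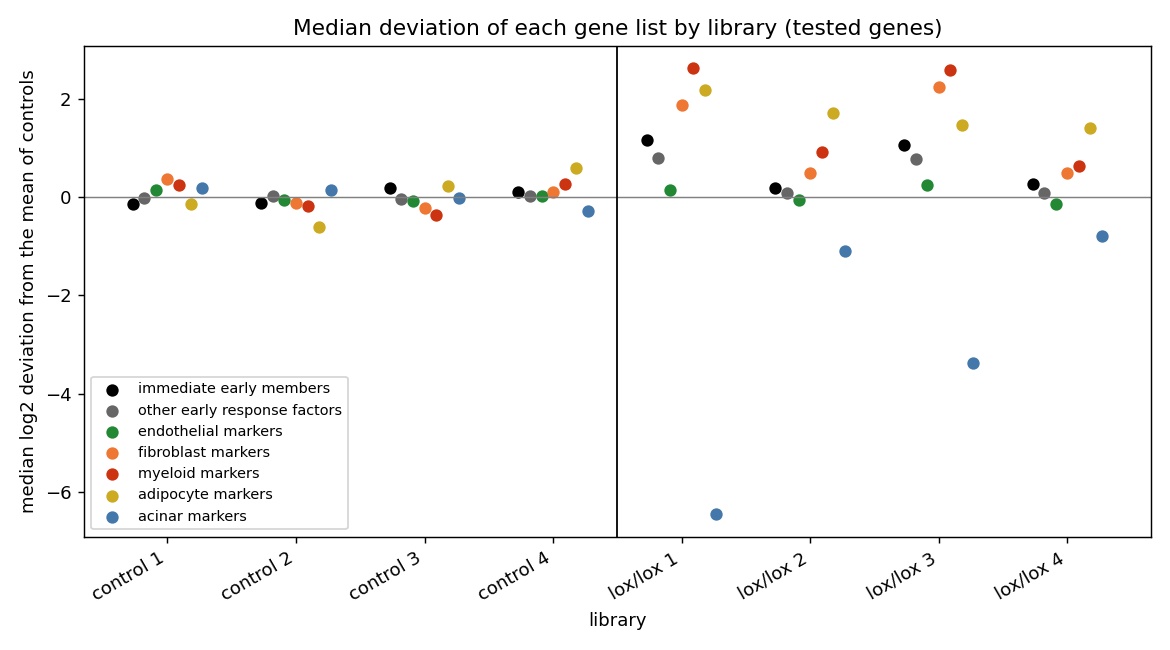
Median deviation of 7 gene lists (y axis, log2 units from the mean of the controls) in each library. The immediate early members reach 1.16 and 1.07 in labelled libraries 1 and 3, where myeloid markers are at 2.62 and 2.58 and acinar markers at -6.45 and -3.37.

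Other early response factors gave a smaller median, 0.29, with 13 of 20 genes tested, 11 of 13 positive (57.9% of all genes were) and 0 passing. The largest values were those of Atf3, a stress-induced ATF protein (log2 1.23, adjusted p = 0.126), Klf10, a TGF-beta induced factor (0.87, 0.113), the FOS relative Fosl2 (0.82, 0.115) and Ier5 (0.78, 0.169). Atf3 was at 0.534 ± 0.284 among controls and at 4.00, 1.36, 6.49 and 0.798 in labelled libraries 1 to 4. Of the remaining FOS and EGR genes, named for their family and all below the expression minimum, Egr2 was at 0.199, 0.0906, 0.801 and 0.375 in controls 1 to 4 and at 0.862, 0.737, 2.38 and 0.416 in labelled libraries 1 to 4, highest in libraries 3 and 1. Egr4 was listed at 0 in all libraries, Fosl1 at 0 in all but labelled library 3 (0.0333), and Egr3 was at most 0.320.

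Early response genes that are not transcription factors were mixed. Of 25, 21 were tested, 15 were positive, 0 passed, and 8 higher and 2 lower had an unadjusted p under 0.05 (median 0.47). The extremes were the kinase gene Pim3 (log2 -1.71, adjusted p = 0.103), the ERK phosphatase Dusp5 (1.16, 0.113), the kinase gene Plk2 (-1.0, 0.122) and the mRNA decay factor Zfp36l1 (0.99, 0.144). Pim3 was at 26.1 ± 3.97 among controls and 3.28, 18.2, 3.75 and 10.5 in labelled libraries 1 to 4, below every control.

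AP-1 partners of the ATF, MAF and CREB families had 9 of 13 matched genes tested, 6 positive and 0 passing (median 0.23). Among the largest differences were those of Maf, known in macrophages (log2 1.10, adjusted p = 0.111), Atf5 (-0.75, 0.191) and Creb1 (0.75, 0.111). The other KLF genes had 6 of 13 tested, 4 positive and 0 passing. Klf15, a metabolic factor, was at 16.8 ± 3.24 among controls and 1.28, 11.1, 2.01 and 8.55 in labelled libraries 1 to 4 (log2 -1.73, adjusted p = 0.112). Klf9 was also lower (-0.47, 0.136), while Klf11 (0.68, 0.116) and Klf3 (0.66, 0.103) were higher.

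Upstream regulators gave no call either. SRF and its partners had 6 of 8 tested, 5 positive and 0 passing (median 0.53), led by the ternary complex factor Elk3 (log2 0.78, adjusted p = 0.138), the SRF coactivators Mkl1 (0.67, 0.137) and Mkl2 (0.45, 0.131), and Elk4 (0.61, 0.206). Srf, named here as the factor itself, was at 1.97 ± 0.299 among controls and 2.35 ± 0.346 in the labelled libraries (SD, n = 4; log2 0.17, adjusted p = 0.368). The MAP kinase cascade had 16 of 17 tested, 12 positive and 0 passing (median 0.23), led by the ERK-activated kinase Rps6ka3 (0.62, 0.125), Mapk7, which encodes ERK5 (0.59, 0.308), Map2k2 (-0.48, 0.258) and Map2k4 (0.39, 0.135).

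The genes outside the group whose levels tracked the members most closely were Cpsf2, an mRNA 3' end processing factor, Dok1, Gpr124, Sbno2, Slc7a7, Dock2, Ddr1 and Fez2. Their Pearson r with the mean standardized profile of the 8 tested members was 0.972 to 0.986 over the 8 libraries, which share the same scaling. It was 0.793 to 0.975 over the 6 libraries other than labelled libraries 1 and 3, with Cpsf2 the highest of the 8 in both. Cpsf2 was at 0.946, 0.945, 1.31 and 1.33 rescaled FPKM in controls 1 to 4 and 2.19, 1.41, 2.44 and 1.5 in the labelled libraries.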

How the data were processed

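Poly(A) RNA of 8 pancreases was sequenced, and 1 table per sample of gene FPKM with interval bounds was deposited by the authors. Per the submitters' processing notes, Cufflinks 2.0.1, TopHat2 2.0.4, CASAVA 1.8 and Bowtie were used, with the builds mm9 and NCBIM37. No source used here gives the scaling option or says that strand was counted, so reads of overlapping genes on opposite strands may be mixed. Values were divided by 100000 and entries of 1 gene ID summed. Implied fragments are the squared ratio of a value to its standard error, taken from the upper bound. They describe how wide the deposited interval was, not the spread between mice, and are not read counts. The 8 genes listed at 0 for excess data in some library were left out. Coordinates are those of the files, with starts counted from 1.

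Genes with a mean of at least 1 were tested with limma 3.58.1 (R 4.3.3) on log2(rescaled FPKM + 1), with an intensity trend, two-sided, adjusted by Benjamini-Hochberg over all 11860 genes at 0.05. The script was tested on simulated data. The exact two-sided permutation test compared the group means of rescaled FPKM for each of the 10 members, without adjustment. The 8 samples are described as 8 mice, so p-values measure the spread between mice; replicate numbers follow accession order and pair nothing. Members, gene lists, markers and rules were chosen with earlier results of these data known. Genes named from each list were those passing or, if none, the 4 with the largest fitted difference; 1 gene that this rule names is not reported here. The genes that track the members were the 8 with the highest Pearson r, leaving out predicted genes. Alternatives were other pseudocounts (0.1 and 5), no minimum or a minimum of 5, 4 scalings, limma without trend or with sample weights, the title prefix, and leaving out libraries. Promoter windows come from RefSeq (GRCm38.p6), with those of 8 members used, and exon numbers from GENCODE M21 by gene ID. Among the members, windows on chromosome 18, which holds Egr1, were left out, and no window was given for Ier2.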

Additional observations from a re-analysis of the deposited data

Results flagged for a closer look

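Klf4 in control 1, at 1.94 rescaled FPKM, stood apart from the other controls, at 1.64 to 1.68: its gap to the nearest of them was 0.863 of the range of the group, above Dixon's 95% limit for 4 samples. It was the only such value among 20 groups checked (10 members in 2 groups), and chance gives about 1 in 20.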

How the results depend on the processing

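In all genes tested, 49 were called; this became 30 with quantile normalization, 18 with equal sums outside the digestive enzymes, 6 with implied fragment totals, 3794 with sample weights, 5 with the title prefix as a covariate, 16 in BKD titles, 13 without labelled libraries 1 and 3, 91 in ASK and BSH titles, and 10 to 2566 when single libraries were left out (most without labelled library 4). Members called numbered 0 (0.413% of all genes), but 5 with sample weights, where 19.5% of all genes were called higher. They numbered 0 to 4 with a library left out, most without labelled library 4, where 11.5% were called higher. Members higher without overlap numbered 3 (10.9% of all genes), but 1 at a minimum mean of 5 (9.03%), with median-ratio scaling (9.01%) and with quantile normalization (7.15%). They numbered 5 with equal sums (26.3%), 8 with implied totals (52.5%) and 7 in BKD titles (35.9%). In ASK and BSH titles 4 were higher (30.7%) and 2 lower (3821 of the 11860 genes). With a library left out they numbered 3 to 5: 5 without labelled library 2 (16.3%), and 4 without control 4 (1692 of the 11860 genes) or labelled library 4 (2399). The members' median of 0.71 became 1.45 with equal sums, 1.74 with implied totals and 0.11 in ASK and BSH titles. With a library left out it was 0.58 to 0.90. At a pseudocount of 0.1 it was 0.86 (0.13 for all genes), and at 5 it was 0.35 (0.05 for all genes). The Ier2 value of -0.00306 changed sign at a pseudocount of 5 (5.97e-05), with equal sums (0.81), implied totals (1.15), sample weights (0.10), the prefix covariate (0.0292), BKD titles (0.52), and without control 3 (0.11), control 4 (0.03), labelled library 1 (0.08) or 2 (0.10), with a range of -0.16 to 0.11 over single libraries left out. In ASK and BSH titles Jund was at -0.0186 and Klf4 at -0.0239. The causes were not tested. No paired analysis was possible because the labels carry no shared replicate numbers. In ASK and BSH titles, labelled library 2 is a lone sample assumed to vary like the controls; likewise control 1 in BKD titles. Low implied fragment numbers limit Fos and Fosb.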

Other observations

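These genes were picked with their values in view. Nr4a1, of the NR4A nuclear receptors, another immediate early family, was at 0.827 ± 0.275 rescaled FPKM among controls and 1.01 ± 0.21 in the labelled libraries (SD, n = 4), and Nr4a3 at 0.225 ± 0.134 and 0.244 ± 0.0375, both below the expression minimum. Nr4a2 was at 0.629, 1.25, 0.969 and 4.77 in controls 1 to 4 and at 1.57, 0.567, 0.514 and 0.376 in labelled libraries 1 to 4 (log2 -0.58, adjusted p = 0.341 in limma), so control 4 stood far above the other controls. The ERK phosphatase Dusp6 was above every control in all 4 labelled libraries, at 1.76 ± 0.267 against 3.80, 2.66, 3.92 and 4.98 (log2 0.80, adjusted p = 0.0849 in limma), with labelled library 4 highest rather than libraries 1 and 3. Dusp5 likewise was highest in library 4, at 0.902, 1.01, 3.32 and 4.49 against 0.386 ± 0.119 among controls. Braf was listed at 41.9 in control 4 and at 1.14 to 1.95 in the other controls.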
